A study of Mus musculus with 2 samples.

Results

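Articular and growth plate cartilage is built from a collagen network filled with proteins that are not collagens. Aggrecan, a proteoglycan loaded with sulfated sugar chains, is held on hyaluronan by a link protein and draws in the water that lets cartilage bear load. Matrilins, cartilage oligomeric matrix protein and chondroadherin join collagen, proteoglycan and cell surface, chondromodulin keeps cartilage free of vessels, and SOX9 is the transcription factor that drives many of these genes in chondrocytes. Lubricin, the product of Prg4, is of another kind: cells of the articular surface, the synovial lining and tendon secrete it, and it lubricates joints and gliding surfaces.

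The genes described are 10 such non-collagen genes, Acan, Comp, Matn1, Matn3, Matn4, Hapln1, Chad, Cnmd, Prg4 and Sox9. They were chosen by name, as every probe set whose single gene symbol in the platform annotation is one of the 10. This gave 13 of the 22690 probe sets on the array, for 10 of the 12393 genes named there. A probe set is a group of oligonucleotides on the array whose signals give 1 value for a transcript. Hapln1 has 3 probe sets, Sox9 has 2 and the other 8 genes have 1 each. No probe set with several gene symbols held one of the 10.

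The study holds 2 arrays of total RNA, 1 from an allograft sample (tissue moved between animals of one species) and 1 from an autograft sample (tissue moved within one animal). Both are labelled as mouse bone, from the femur of C57BL/6 mice. The labels give no sex, age, time after grafting or number of animals, and do not say whether C57BL/6 was the donor or the recipient. The series title names graft samples from femur, and the question taken here is which transcripts differ between them. With 1 array per graft type no difference below has a replicate check and no p-value is given.

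Both arrays were scaled to nearly the same level before deposit, with a trimmed mean intensity of 500.2 on the allograft and 500.1 on the autograft array. The floor was an intensity of 175, the median over both arrays without the control probe sets. A probe set that reached the floor on an array is called measured there. A log2 ratio is allograft minus autograft after values under the floor were set to it, so a negative value is lower in the allograft, and a value of 1 or -1 is a 2-fold difference. The 3' to 5' intensity ratio of the beta-actin controls was 1.77 on the allograft and 1.19 on the autograft array. Such a ratio rises as RNA breaks down. For Gapdh it was 0.194 and 0.0349, so its 3' control read far below its 5' control, the opposite of that rise. The 2 controls thus do not give 1 account of RNA quality, and why Gapdh read this way was not tested. The part of RNA quality in the values below was not tested. In such bulk tissue, fewer cells of a type and less RNA per cell cannot be told apart.

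As a check of the label, 4 of the 6 chondrocyte genes set aside for it, Col2a1, Col9a1, Col11a2 and Acan, were measured on both arrays, so cartilage transcripts were present in both femur samples. The remaining 2, Sox9 and Matn1, were under the floor on both.

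Prg4 and the group's other genes measured on both arrays lay on opposite sides of 0. Prg4 read 5303 in the allograft and 1081 in the autograft sample, 4.90-fold higher in the allograft, at a log2 ratio of 2.29. All 6 other probe sets measured on both arrays were lower in the allograft, with log2 ratios from -0.76 to -0.20. The 2 Hapln1 probe sets with bounds were measured in the autograft only, so their ratios could only fall below 0. Of the 9 probe sets measured on at least 1 array, 1 was at least 2-fold higher and 0 were at least 2-fold lower, where 1.14% and 0.734% of all 11987 such probe sets were. At 1.5-fold, 4 of the 9 were lower, those of Matn3, Cnmd and Matn4 and, by its bound, 1 of Hapln1, beside 6.36% of all. With bounds taken at their value, the median log2 ratio of the 9 was -0.47, and that of the 8 without Prg4 was -0.56. All 11987 had a median of -0.06, with 57.4% of them below 0.

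**Figure D1:**
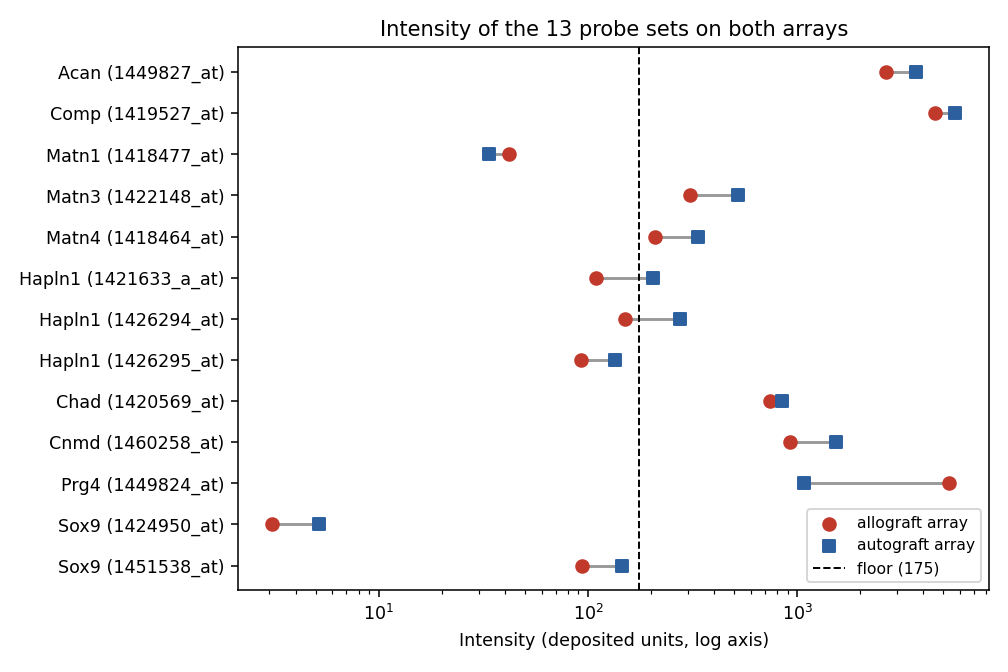
Intensity of each of the 13 probe sets, in deposited units on a log axis, with a red circle for the allograft array and a blue square for the autograft array; the dashed line is the floor of 175. The Prg4 points lie far apart with the allograft on the right (5303 against 1081), Matn1 is the only other probe set with the allograft on the right, and 4 probe sets lie wholly left of the floor.

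Without any floor, 11 of the 13 probe sets had a lower intensity on the allograft array, beside 59.4% of all 22626 non-control probe sets. The 2 exceptions were Prg4 and Matn1, the latter under the floor. This count takes the order of 4 probe sets under the floor on both arrays, to which the ratios give no order. It also counts Hapln1 by 3 probe sets and Sox9 by 2. Lower values were thus the majority across the whole array, and a ratio a little below 0 does not set a gene apart.

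Aggrecan and its link protein form the water-holding complex of cartilage. Acan, which encodes aggrecan, read 2652 in the allograft and 3686 in the autograft sample, a log2 ratio of -0.47. Hapln1, which encodes the link protein that fixes aggrecan to hyaluronan, was dim, with autograft values on both sides of the floor. Its probe set 1426294_at read 150.2 against 275.8, which makes it at least 1.57-fold lower in the allograft. Its probe set 1421633_a_at read 108.8 against 205.2, at least 1.17-fold lower. This one carries a mark for oligonucleotides shared by several transcripts of a gene. Its probe set 1426295_at read 92.5 against 134.8, under the floor each time, and has no ratio. The link protein thus had 2 probe sets with bounds on the lower side in the allograft and 1 without a ratio. These probe sets target the same gene and are not replicates.

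The matrilins and cartilage oligomeric matrix protein are adaptors that bind several matrix components at once. Matn3, a matrilin of growth plate cartilage, had the lowest ratio of the group's genes measured on both arrays. It read 308 in the allograft and 522 in the autograft sample, at a log2 ratio of -0.76, and was 1.69-fold lower in the allograft. It ranked 257 from the lowest among the 10640 probe sets measured on both arrays. Matn4, the most widely expressed matrilin of these, read 209 against 335.5, a log2 ratio of -0.68 and 1.60-fold lower. Matn1, the classical cartilage matrix protein, read 42 against 33.5, under the floor each time, and has no ratio. Of the matrilins, then, the pair with a measured ratio were both lower in the allograft. Comp, which encodes the oligomeric protein that binds collagen in cartilage and tendon, read 4574 against 5675, a log2 ratio of -0.31 and 1.24-fold lower.

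Chad and Cnmd were each read by 1 probe set, and both read lower in the allograft. Chad, which encodes chondroadherin, a leucine-rich protein that chondrocytes bind through integrin, read 738.5 in the allograft and 849 in the autograft sample. Its log2 ratio of -0.20 was the closest to 0 of the group's genes measured on both arrays. Cnmd, which encodes chondromodulin, a membrane-derived inhibitor of vessel growth, read 923 against 1532.5. That is a log2 ratio of -0.73, 1.66-fold lower in the allograft, and rank 290 from the lowest of 10640.

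Sox9 was under the floor in both samples. Its probe set 1451538_at read 93.8 in the allograft and 145.9 in the autograft sample, and 1424950_at read 3.1 and 5.2. Neither is given a ratio, since values under the floor were treated as having no order. The Sox9 values therefore do not show whether the gene differed between the samples.

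Promoter sequences are shown for genes of this group that were lower in the allograft. They are taken from RefSeq (GRCm38.p6), which gave 8 promoters for 7 of the 10 genes, with Matn4 having 2; Comp, Prg4 and Sox9 had none in the table. Each run is the 250 bases before the gene's start, 5′ to 3′ on the gene's strand. Matn3 (chr12:8947679-8947928, plus strand) and Cnmd (chr14:79662184-79662433, minus strand) are shown because their ratios were the lowest of the group's genes with both values over the floor. Hapln1 (chr13:89540386-89540635, plus strand) and Chad (chr11:94564797-94565046, plus strand) are shown because they hold a searched motif, which stands in capitals.
Matn3: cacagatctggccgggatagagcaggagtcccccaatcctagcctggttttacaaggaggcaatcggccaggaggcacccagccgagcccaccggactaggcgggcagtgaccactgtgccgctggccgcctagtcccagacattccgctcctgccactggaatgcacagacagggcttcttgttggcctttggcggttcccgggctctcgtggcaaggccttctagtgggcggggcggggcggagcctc
Cnmd: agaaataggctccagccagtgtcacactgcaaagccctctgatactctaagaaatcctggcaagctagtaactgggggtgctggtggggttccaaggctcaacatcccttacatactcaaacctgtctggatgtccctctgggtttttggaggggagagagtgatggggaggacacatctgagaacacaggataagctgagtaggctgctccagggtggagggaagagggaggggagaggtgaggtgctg
Hapln1: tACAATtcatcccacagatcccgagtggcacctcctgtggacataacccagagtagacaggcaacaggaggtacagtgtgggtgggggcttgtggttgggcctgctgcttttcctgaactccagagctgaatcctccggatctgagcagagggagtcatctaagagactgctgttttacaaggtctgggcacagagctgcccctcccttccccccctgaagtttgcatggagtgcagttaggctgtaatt
Chad: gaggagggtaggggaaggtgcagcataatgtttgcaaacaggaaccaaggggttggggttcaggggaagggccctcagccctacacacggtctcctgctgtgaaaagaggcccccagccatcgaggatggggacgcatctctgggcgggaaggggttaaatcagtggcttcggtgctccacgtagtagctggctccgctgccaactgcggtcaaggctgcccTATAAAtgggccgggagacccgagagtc

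The motifs searched, on both strands, were ACAAT and ACAAAG, cores bound by SOX and other HMG-box proteins, and the TATA box TATAAA. The first, ACAAT, was found in 1 of the 8 promoters, in Hapln1 from 249 to 245 bases before the start, and in 27.7% of all 32851 promoters in the table over the same length. ACAAAG was found in 0 of the 8 and in 16.5% of all. TATAAA was found in 1 of the 8, in Chad from 28 to 23 bases before the start, and in 12.4% of all. The promoter of Acan, which is not printed, had a GC content of 74.4%, that of Cnmd 54.0% and that of Matn3 65.2%, beside a median of 52.4% over all promoters. These matches describe the letters in this window only.

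Prg4 was 8th from the highest ratio among the 10640 probe sets measured on both arrays. Its log2 ratio exceeded the median of the other 8 probe sets of the group by 2.86. The 8 include the 2 Hapln1 bounds, which could only lie below 0, so that median rests in part on the floor. A 2-fold higher allograft value was found in 1.17% of the 10640. Prg4 has 1 probe set here, so no second reading of the gene was possible on these arrays.

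A measure of how far readings of a gene can stray comes from genes with a second probe set. In 1925 genes whose brightest and next probe set were both measured on each array, the log2 ratios of the pair differed with an SD of 0.44. The ratios of Prg4, Matn3, Cnmd and Matn4 and the bound of the brighter Hapln1 probe set were larger in size than this SD, and that of Acan was larger only by a little. Those of Comp and Chad were smaller, and the bound of the other Hapln1 probe set does not place it. Single probe sets strayed further: those of Bgn, which encodes biglycan, stood at 0.21, 0.59 and 4.14. The Prg4 value rests on 1 probe set, so such a stray reading could not be checked for. This SD reflects the disagreement of probe sets within 1 pair of arrays, not the spread between animals or grafts.

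The ratio of all probe sets changed with intensity, which bears on Acan and Comp. The 10640 probe sets were put in 20 bins of 532 by mean log2 intensity. In the brightest bin, which holds Comp, the median log2 ratio was 0.30 and the middle 95% lay between -0.26 and 0.76, so that Comp at -0.31 lay just below it. In the bin of Acan the range was -0.49 to 1.15 with a median of 0.10, and Acan at -0.47 lay just inside. Comp sits near the edge between these bins and would lie inside the range of the Acan bin. Cnmd lay below its bin's range of -0.67 to 0.70 and Prg4 above its range of -0.76 to 0.92. Matn3, Matn4 and Chad lay inside theirs. With the trend of the ratio on intensity taken off, Comp stood at -0.50, Acan at -0.56, Cnmd at -0.67, Matn3 at -0.65, Matn4 at -0.58 and Chad at -0.13, while Prg4 stood at 2.27. The bright genes Comp and Acan were then nearer to the dimmer matrilins than before.

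**Figure D2:**
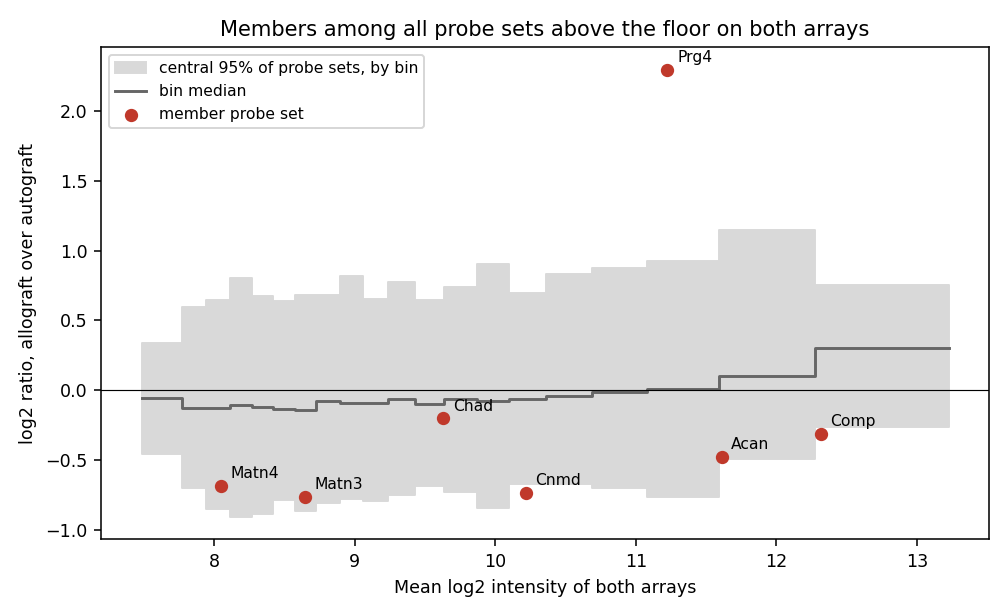
Log2 ratio of allograft over autograft against the mean log2 intensity of both arrays, for the 7 member probe sets measured on both (red points), over the median (grey line) and central 95% (grey band) of all 10640 such probe sets in 20 bins. Prg4 lies far above the band, Comp and Cnmd just below it, and the other 4 inside it.

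The directions held under each scaling and floor that was tried. Across quantile normalization, 2 ways of centring or scaling, removal of the intensity trend, other floors and no floor, the Prg4 log2 ratio ran from 2.22 to 2.36. Those of Cnmd ran from -0.73 to -0.67, of Matn3 from -0.76 to -0.65, of Acan from -0.56 to -0.41 and of Comp from -0.52 to -0.25. The Hapln1 probe sets moved most, as a lower floor turned their bounds into measured ratios. With the floor at the 25th percentile, 1426294_at stood at -0.88 and 1421633_a_at at -0.92.

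**Figure D3:**
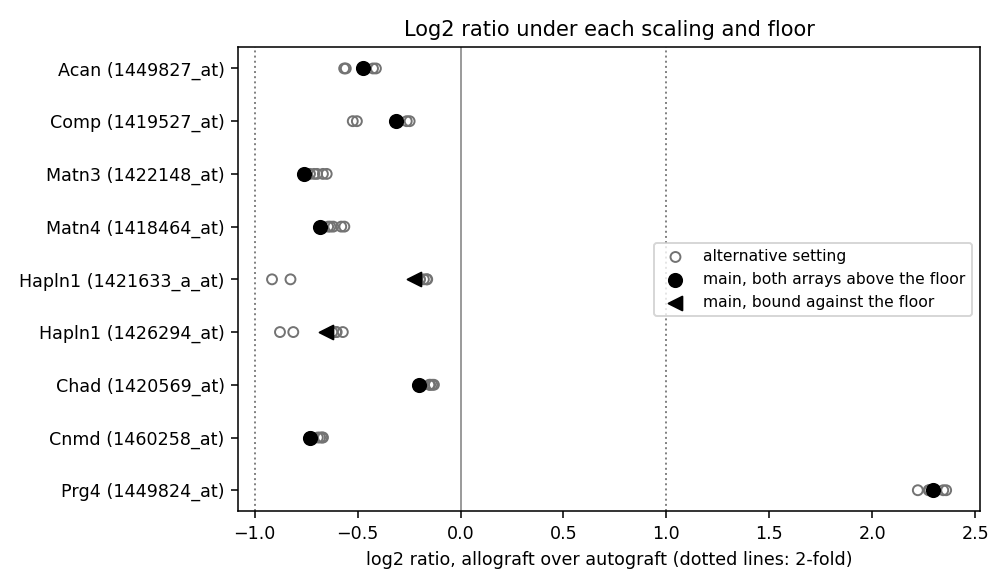
Log2 ratio of allograft over autograft for the 9 probe sets measured on at least 1 array, with filled symbols for the values given in the text (arrowheads for bounds) and open circles for the alternative scalings and floors; dotted lines mark 2-fold. Prg4 stays between 2.22 and 2.36, and every circle of the other 8 probe sets stays left of 0.

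The collagens of cartilage, which build the network that these proteins fill, were read for comparison, as 1 probe set per gene, the brightest. Of 7 on the array 6 were measured; 5 had a log2 ratio below 0 and 1 above, with a median of -0.69. Over all 7833 genes measured on at least 1 array the median was -0.08 and 0.753% were at least 2-fold lower. The 2 collagens at least 2-fold lower were Col9a3 (414 against 1315, -1.67) and Col10a1 (362 against 1029, -1.51), chains of the type IX collagen on fibril surfaces and of hypertrophic cartilage. Another Col9a3 probe set read 374 against 432, at -0.21. Dimmer probe sets of Col9a1 and Col11a1 stood at -0.18 and -0.20, where the brightest stood at -0.66 and -0.36. The size of the lower collagen values, and of their median, thus depends on the probe set chosen. Col2a1, the main fibril chain, was the exception at 0.44 (6121 against 4511). Acan and Col2a1, which are commonly read together as cartilage markers, thus lay on opposite sides of 0. Col2a1 was in the brightest bin of all probe sets, where the median log2 ratio was 0.30. Its 0.44 lay inside that bin's range of -0.26 to 0.76, so it does not set Col2a1 apart from probe sets as bright. With the intensity trend taken off, 1 of the 6 collagens was above 0 and 5 below, at a median of -0.71.

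Other proteins of cartilage matrix did not, as a list, share the lower allograft values of the members measured on both arrays other than Prg4. Of 14 measured, 11 were above 0 and 3 below, with a median of 0.10. Among the 11, Vcan, Thbs4 and Thbs1 stood at about 0.01. The 3 below were Snorc, Mia (-0.33) and Thbs3 (-0.13). With the intensity trend taken off, 9 were above 0 and 5 below, at a median of 0.09. The only one 2-fold apart was Snorc, a chondrocyte membrane proteoglycan, at -1.18 (594 against 1347). The highest of those measured on both arrays was Bgn, biglycan, at 0.59, with the other readings given above. Cilp2, a protein of the cartilage intermediate layer family, was measured in the allograft only (301.7 against 152.5), at least 1.72-fold higher there. It is counted among the 11, though its bound could only lie above 0. Of the genes for chondrocyte transcription factors and signals 9 of 19 were measured, 6 of them below 0, and the median was -0.31. None was 2-fold apart, and they ran from Pth1r, the receptor for parathyroid hormone and its related protein, at -0.93 (1545 against 2949) to Sox6, a partner of SOX9, at 0.36 (1024.5 against 796).

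Genes that make, bind and break down proteoglycans gave no 2-fold difference by the brightest probe set of each gene. Among dimmer ones, a Timp2 probe set was measured in the autograft only (84.7 against 310.9), at a bound of -0.83. For synthesis and sulfation of the sugar chains 16 of 19 were measured, 12 of them below 0, with a median of -0.15. The 12 include B3galt6, measured in the autograft only (135.5 against 205.4), so its bound could only lie below 0. With the intensity trend taken off, 8 were above 0 and 8 below, at a median of -0.07. They ran from Chst12, a chondroitin sulfotransferase, at -0.93 (217.5 against 414) to Ugdh, which makes the sugar precursor UDP-glucuronate, at 0.42 (1637 against 1221). For turnover of aggrecan and cartilage matrix 17 of 19 were measured, and 14 of them were above 0, with a median of 0.18. Many are bright, and with the trend taken off 10 were above 0 and 7 below, at a median of 0.05. The highest was Mmp3, stromelysin, at 0.68 (543 against 338) and the lowest Hyal2, a hyaluronidase, at -0.49 (281 against 394). The aggrecanases Adamts4 and Adamts5 stood at 0.27 (273 against 227) and 0.18 (820 against 723), smaller than the SD of 0.44 between probe sets. For hyaluronan synthesis and binding 9 of 13 were measured, 5 above 0 and 4 below, with a median of 0.12. Habp2, measured in the allograft only (190.3 against 165.7), could only lie above 0, and its bound of 0.12 is that median. Those measured on both arrays ran from Stab1, a scavenger receptor, at -0.39 to Cd44, the hyaluronan receptor, at 0.40.

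**Figure D4:**
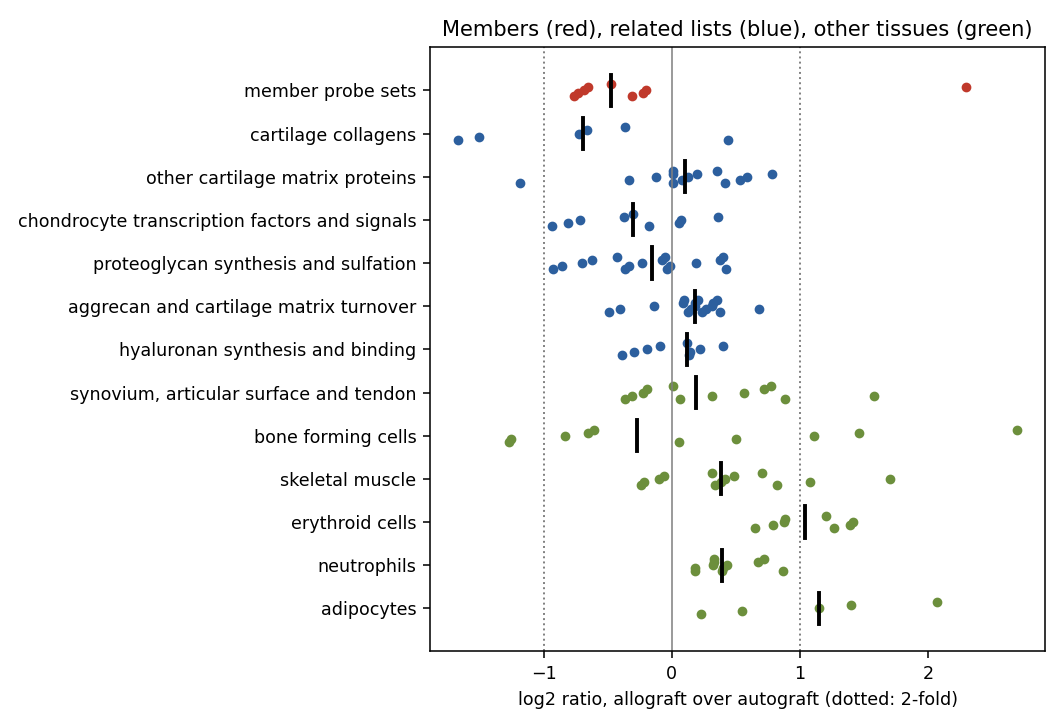
Log2 ratio of allograft over autograft for the 9 member probe sets (red), for genes of related lists (blue) and of lists for other tissues (green), 1 point per gene measured on at least 1 array, bounds at their value; black bars are medians and dotted lines mark 2-fold. Prg4 at 2.29 lies apart from the other red points, which overlap the collagens, and the erythroid and adipocyte genes lie wholly right of 0.

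Prg4 is also made outside cartilage, so genes of synovium, articular surface and tendon were read beside it. Of 15 on the array, 12 were measured, 8 of them above 0, with a median of 0.19 and a summed intensity of 35580 in the allograft and 27062 in the autograft sample. Kera, keratocan of tendon and other fibrous tissue, was 2-fold higher at 1.58 (1933 against 647), beside 0.868% of all genes. Tnmd, tenomodulin, a tendon protein related to chondromodulin, stood at 0.89 (6820 against 3692) and Dpt, dermatopontin, at 0.78. Comp belongs to this list too and, with Tspan15 at -0.37, Tppp3 and Thy1, lay below 0. Scx, the tendon transcription factor, Gdf5 and Erg, both of forming joints, were under the floor on both arrays. The part of tendon or synovial tissue in the Prg4 value was not tested.

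Markers of other tissues in the femur were read in the same way. Of the bone-forming genes 10 were measured, 5 above 0 and 5 below, with a median of -0.27 and a summed intensity of 38249 in the allograft and 30044 in the autograft sample. Col1a1 (2.70), Sparc (1.46) and Col1a2 (1.11), all of bone matrix, were 2-fold higher, and Omd (-1.27) and Alpl (-1.25), of mineralising cells, 2-fold lower. Dimmer probe sets of Col1a1 (2736 against 31.3) and Col1a2 (445.5 against 14.9) were measured in the allograft only. That of Sparc stood at 2.46, and that of Ibsp at -0.56, where its brightest stood at 0.05. Why these readings differ was not tested. All 8 erythroid genes measured were above 0, with a median of 1.04 and sums of 19758 and 9697. The 8 include Epb42, measured in the allograft only (303 against 96.5), so its bound could only lie above 0. Hemgn (1.41), Ermap, Rhag and Slc4a1 were 2-fold higher and Alas2 (0.65) was lowest. All 5 adipocyte genes measured were above 0, with a median of 1.15 and sums of 25875 and 15838. Retn (2.07), Scd1 and Adipoq were 2-fold higher, Lpl (0.23) was lowest, and Cidec, Lep and Pparg were under the floor on both arrays. All 11 neutrophil genes were above 0, from S100a8 (0.18) to Mpo (0.86), with a median of 0.39 and sums of 53356 and 40463. Of 13 skeletal muscle genes 9 were above 0, with a median of 0.38 and sums of 60996 and 46913, and Atp2a1 (1.71) and Acta1 (1.08) were 2-fold higher while Myh2 (-0.24) was lowest. These sums rest on bright genes, and the brightest bin of all probe sets had a median ratio of 0.30. With the intensity trend taken off, the medians were 1.02 for erythroid, 1.06 for adipocyte, 0.27 for neutrophil, 0.17 for muscle and -0.39 for bone-forming genes. The sums were higher in the allograft for other cartilage matrix proteins too, at 35920 and 30363, and for matrix turnover, at 60353 and 52676. The part of tissue makeup in the values of the 10 genes was not tested.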

How the data were processed

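Total RNA of 1 allograft and 1 autograft sample was measured on 1 oligonucleotide array each. The authors deposited 1 linear intensity for each probe set; how the authors corrected the background and scaled them is not given in the sources used here. They were used as deposited, since the trimmed means of both arrays (2% off each end) lay within 10% of each other. The 64 control probe sets were left out, and gene names came from the platform annotation, where 20380 of the other 22626 probe sets had 1 symbol, 691 several and 1555 none. All 10 genes matched the RefSeq table by Entrez identifier, and 0 were renamed. The floor was the 50th percentile of both arrays.

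The members and the gene lists were chosen with earlier results of these data known. Named were every member and, from each related or tissue list, the highest and lowest gene measured on both arrays and any 2-fold gene; the other genes named from lists were chosen after their values were seen. Where a list gene has several probe sets, the brightest was used. Precision is limited by the number of arrays. The counting step was run on simulated data with large differences placed in bright probe sets only. That run does not show how small differences or dim probe sets are counted. Tables were handled with pandas 2.3.3 and numpy 2.4.6 in Python 3.11.15, the lowess trend came from statsmodels 0.14.6, and figures were drawn with matplotlib 3.10.9.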

Additional observations from a re-analysis of the deposited data

How the results depend on the processing

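Counts of 2-fold differences were the same (1 higher, 0 lower) under quantile normalization, both centrings, the lowess fit with a span of 0.4, floors at the 25th and 75th percentile, log2 of the intensity plus 16, 4-fold, probe sets without a shared mark and 1 probe set per gene. At 1.5-fold 4 probe sets were lower in place of 0, under the main scaling and floor. This count was less stable. With the trend taken off, Matn4 (-0.579) and Hapln1 1426294_at (-0.572) fell short of 1.5-fold, as did Matn4 (-0.564) under quantile normalization. With the floor at the 25th percentile, Hapln1 1421633_a_at (-0.92) and Sox9 1451538_at (-0.64) passed it. The group's median log2 ratio ran from -0.64 with the floor at the 25th percentile to -0.31 with the floor at the 75th, where 5 probe sets were left. Sox9, Matn1 and 1 Hapln1 probe set have a value only under a lower floor or none; after adding 16 to every intensity, Matn1 stood at 0.23 and the Sox9 probe sets at -0.56 and -0.15. No measure of signal over background was used here, so values this dim are of unknown reliability. No paired analysis was possible because each graft type has 1 array. The trend was taken off the related lists as well, which was chosen after seeing the data, and each list median kept its sign.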
